A study of Mus musculus with 23 samples.

Results

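Retinoid handling was followed through 9 of the 23481 genes that the deposited files list, in 23 RNA-seq libraries of mouse olfactory epithelium. They are the retinaldehyde dehydrogenase genes Aldh1a1, Aldh1a2 and Aldh1a3, their relative Aldh1a7, the genes of the retinoic acid binding proteins Crabp1 and Crabp2, the receptor genes Rara and Rarb, and Cyp26b1, an enzyme that clears retinoic acid. The group was chosen by name, with earlier results of these data in view: Aldh1a1 was known to be higher and Crabp1 lower in libraries of mice given 100% TMT than in their controls. Values of the 9 genes in that comparison, and in the comparison of the TMT doses that shares its libraries, are therefore given as a description with no test. The lower TMT dose was tested against the same controls, so its p-values for these genes are not independent of the choice either.

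Each library came from RNA that an antibody against pS6, the phosphorylated form of a protein of the small ribosomal subunit, pulled down from tissue homogenates. Ribosomes of active neurons carry this mark, so RNA of activated cells is enriched. The mice were C57BL/6 at postnatal day 21 with no transgene or mutation named in the labels, and the exposure lasted 1 h. One experiment compared controls (5 libraries, litters 1 to 5) with 1% acetophenone (3 libraries, litters 3 to 5) and 100% acetophenone (3 libraries, litters 1 to 3). A separate experiment compared controls, 1% TMT and 100% TMT (trimethylthiazoline, a component of fox odor), with 4 libraries each from litters 1 to 4. Acetophenone is an aromatic ketone with a floral smell. The labels name no solvent for the control and do not say how many mice went into a library. Raw counts per library summed to between 2118099 and 9526932.

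Vitamin A reaches cells as retinol, which alcohol and retinol dehydrogenases oxidise to retinaldehyde. The ALDH1A enzymes then turn retinaldehyde into retinoic acid in an irreversible step, the CRABP proteins bind the acid in the cytoplasm, and the CYP26 enzymes break it down. Retinoic acid acts in the nucleus on receptors of the RAR family, which bind DNA in pairs with RXR proteins, and in the nasal epithelium it is known for its part in the development and renewal of olfactory neurons.

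Aldh1a1 (mm10, chromosome 19, 20492715 to 20643465, + strand) and Aldh1a7 (chromosome 19, 20692953 to 20727562, - strand) lie next to each other and are near copies, which bears on every count of these genes. Their coding sequences in GENCODE M21 are both 1506 bases long and identical at 1380 positions (91.6%), with a longest identical run of 100 bases. The first 90 coding bases are shown because they let a reader see how little separates a read of one gene from a read of the other, with the 5 positions at which they differ in capitals.
Aldh1a1: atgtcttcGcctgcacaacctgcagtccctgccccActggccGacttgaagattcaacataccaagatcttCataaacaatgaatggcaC
Aldh1a7: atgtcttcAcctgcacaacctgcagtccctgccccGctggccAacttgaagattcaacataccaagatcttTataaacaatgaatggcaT
Of all windows of 50 bases in the coding sequence of Aldh1a1, 10.4% occur unchanged in Aldh1a7. Between 26.5 and 34.4% of all reads that the files give to the pair align to 2 places, and in every library these were divided between the genes in the ratio of the uniquely aligned reads (largest difference 0 percentage points). The counts used below are those of uniquely aligned reads. The other 7 genes gained 0 counts in any library when reads with up to 20 alignments were added.

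Levels are given as CPM, the count of a gene scaled to a common library size with TMM normalization over the 23 libraries. In controls of the TMT experiment Aldh1a1, which encodes a retinaldehyde dehydrogenase, stood at 59.1, 8.75, 24.5 and 45.4 CPM in litters 1 to 4, from 250, 53, 176 and 252 counts. With 1% TMT the levels were 213.9, 46.5, 53.8 and 95.6 CPM, and with 100% TMT they were 219.3, 138.5, 163.4 and 269.8 CPM. Every litter thus had its lowest level in the control and its highest with 100% TMT, although in litter 1 the doses were level (ratio 1.02). The lowest library at 100% TMT lay above the highest control, whereas at 1% TMT litters 2 and 3 lay below the control of litter 1.

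The means of Aldh1a1 were 34.4 ± 22.3 CPM in TMT controls, 102.5 ± 77.4 with 1% TMT and 197.7 ± 58.7 with 100% TMT (SD, n = 4 each). The ratio of the means at 100% TMT was 5.74, and within litters 1 to 4 the ratio was 3.71, 15.8, 6.67 and 5.94. Fitted by edgeR, the log2 fold change at 100% TMT was 2.55, or 2.82 with litter as a block and 2.44 after a further correction of each library for GC content and transcript length. Its transcript has 2358 bases and a GC content of 46.1%.

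**Figure D1:**
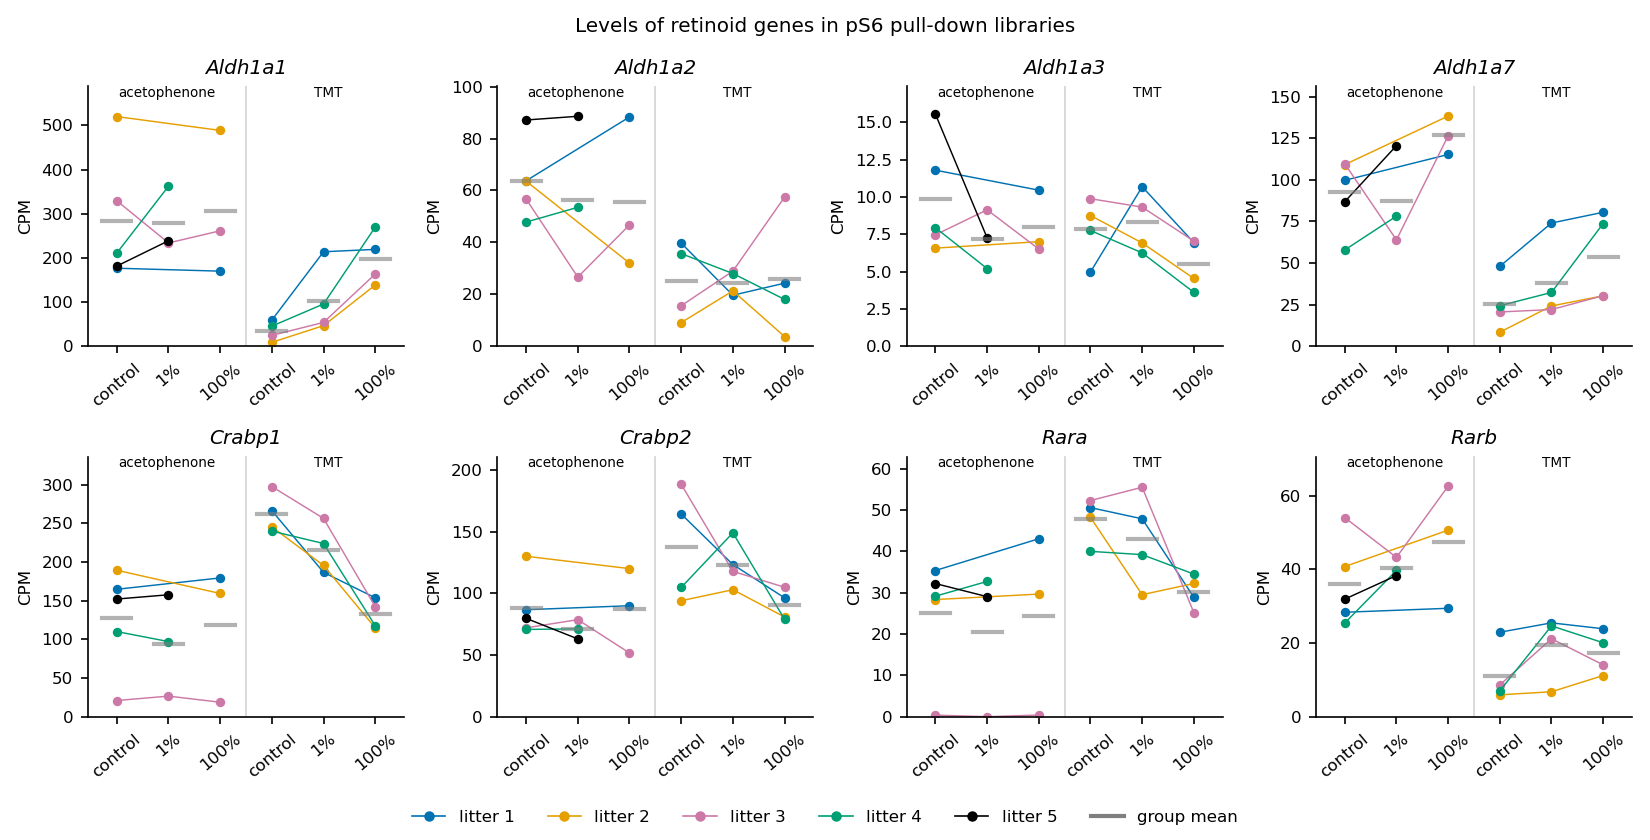
Levels in CPM (y axis, starting at 0 in each panel) of 8 of the genes in control, 1% and 100% libraries of the acetophenone and TMT experiments. Each point is 1 library, lines join libraries of a litter, and grey bars are group means; Aldh1a1 averages 34.4 CPM in TMT controls and 197.7 with 100% TMT, and Crabp1 262.5 and 132.2.

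At 1% TMT the same gene was higher than the control in 4 of 4 litters, by 3.62, 5.32, 2.20 and 2.10 times, but did not pass the test. This comparison uses the same 4 controls as the one at 100% TMT, so its fold changes and p-values are not independent of the choice of genes. The edgeR log2 fold change was 1.58 (SE 0.56, adjusted p = 0.999), and 1.59 with litter as a block (SE 0.31, adjusted p = 0.417). DESeq2 gave an adjusted p of 0.402, the smallest for any of the 8 genes tested under any setting at this dose. Without the 1% library of litter 1, the highest of its group, the log2 fold change fell to 0.91. With 100% TMT against 1% TMT Aldh1a1 was higher by 2.98, 3.04 and 2.82 times in litters 2 to 4, with a log2 fold change of 0.97 over all libraries and 1.64 without the 1% library of litter 1.

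In the acetophenone experiment Aldh1a1 did not pass the test at either dose. The controls of litters 1 to 5 stood at 176.6, 520.2, 329.4, 211 and 181.5 CPM. With 100% acetophenone litters 1 to 3 gave 170, 488.8 and 261.4 CPM, each lower than its own control, and the groups overlapped. Scaled to total counts without TMM, litter 1 was instead higher with the odor (189.8 against 177.8 CPM). With 1% acetophenone litters 3 to 5 gave 233.9, 362.4 and 238.8 CPM, which were lower in litter 3 and higher in litters 4 and 5. Litter 2 was highest and litter 1 lowest both in the controls and at 100%.

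The edgeR log2 fold change of Aldh1a1 was -0.16 at 100% acetophenone (SE 0.49, adjusted p = 1; in the fit blocked by litter SE 0.16, adjusted p = 0.919). At 1% acetophenone it was 0.23 (SE 0.34, adjusted p = 1; in the fit blocked by litter 0.26, SE 0.23, adjusted p = 0.8). Without litter 3, whose libraries stand apart as described below, it was 0.61 with the block (edgeR adjusted p = 0.369) and 0.63 without it. Between the doses, with litter in the model, it was -0.29 (edgeR, SE 0.26, adjusted p = 0.878), and it turned to 0.14 without the litter term. Averaged over litters, the log2 ratio to the control was -0.16 for 100% acetophenone and 2.80 for 100% TMT. With TMM scaling every litter was below 0 with the first odor and above 0 with the second. This difference between the odors was not tested.

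Ordered by mean level, Aldh1a1 was lowest in TMT controls, followed by 1% TMT, 100% TMT, 1% acetophenone (278.4 ± 72.8 CPM, n = 3), acetophenone controls (283.7 ± 146 CPM, n = 5) and 100% acetophenone (306.8 ± 164.1 CPM, n = 3; SD). The ranges of neighbours in this order overlapped in every case. The acetophenone groups hold different litters, and against controls of the same litters the order was otherwise. There the ratio of means to the control was 1.157 at 1% and 0.897 at 100% acetophenone. Acetophenone controls held 8.24 times the mean of TMT controls, which among themselves differed by up to 6.75 times. The codes in the library names change between litter 1 and litters 2 to 4 of the TMT experiment and again between the experiments, so the experiment and the preparation of the libraries cannot be told apart. The within-litter ratios above each stay inside 1 code series.

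Aldh1a7, whose product is not counted among the main retinaldehyde dehydrogenases, was also higher with TMT, by a smaller factor. It stood at 48, 8.42, 20.6 and 24.3 CPM in the TMT controls, at 74.1, 24.2, 22 and 32.3 CPM with 1% TMT and at 80.5, 30.3, 30.4 and 73.8 CPM with 100% TMT. Within each litter the level was higher at both doses than in the control, although the groups overlapped, with litter 1 high in all of them. The ratio to the control was 1.68, 3.60, 1.48 and 3.03 at 100% TMT, and the edgeR log2 fold change 1.12. At 1% TMT the log2 fold change was 0.59 (edgeR, SE 0.54, adjusted p = 0.999; in the fit blocked by litter 0.64, SE 0.29, adjusted p = 0.694), and it fell to 0.04 without the 1% library of litter 1.

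Because both genes are read from the same library, their ratio does not depend on how libraries are scaled. The count of Aldh1a1 was 1.04 to 1.87 times that of Aldh1a7 in TMT controls, 1.92 to 2.96 times with 1% TMT and 2.72 to 5.38 times with 100% TMT. The 1% libraries all lay above the controls, and the 100% library lay above the 1% library in litters 2, 3 and 4 but not in litter 1. With acetophenone the groups overlapped: the ratio was 1.77 to 4.76 in controls, between 1.98 and 4.64 at 1% and between 1.48 and 3.53 at 100%. Within litters 1 to 3 it was lower with 100% acetophenone in each. By the CPM used here Aldh1a7 was higher and Aldh1a1 lower than in the control.

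**Figure D2:**
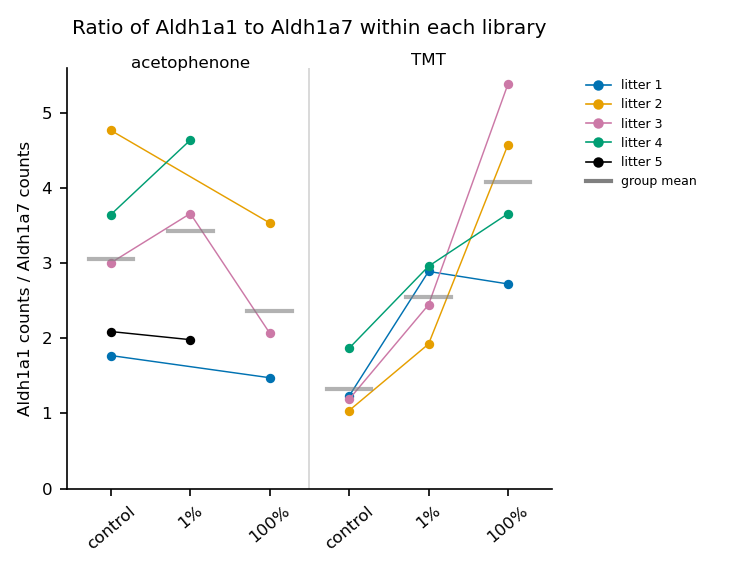
Ratio of the unique counts of Aldh1a1 and Aldh1a7 in each library (y axis, no unit) for control, 1% and 100% libraries of both experiments. Points are libraries joined by litter and grey bars are group means, which go from 1.33 in TMT controls to 2.55 and 4.08 with 1% and 100% TMT.

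At 100% acetophenone the groups of Aldh1a7 did not overlap, alone among the 8 genes tested; this was so for 3.68% of all genes tested in the comparison. Litters 1 to 3 gave 115.3, 138.4 and 126.5 CPM with the odor and 99.8, 109.2 and 109.7 CPM in their controls, higher in 3 of 3 litters. The edgeR log2 fold change was 0.25 and did not pass (SE 0.27, adjusted p = 1; in the fit blocked by litter SE 0.18, adjusted p = 0.897, the smallest of the 8 genes under any setting). Of the 11564 genes tested in this comparison edgeR called 0% without a block and 0.0951% with litter as a block. At 1% acetophenone Aldh1a7 was lower in litter 3 (0.583 times) and higher in litters 4 and 5 (1.35 and 1.39 times), with a log2 fold change of 0.07 (edgeR, SE 0.39, adjusted p = 1).

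The genes of the other ALDH1A enzymes had groups that overlapped in every comparison. Aldh1a2 (chromosome 9, 71215789 to 71296243), the main source of retinoic acid in the embryo, stood at 39.7, 9.08, 15.6 and 35.7 CPM in TMT controls and at 24.3, 3.73, 57.4 and 18 CPM with 100% TMT. Litter 3 was higher with the odor, at 3.69 times its control, and the other litters were at 0.410 to 0.611 times theirs. The log2 fold change was 0.06, and -0.69 without the 100% library of litter 3. At 1% TMT it was -0.03 (edgeR, SE 0.62, adjusted p = 0.999), with litters 2 and 3 higher and litters 1 and 4 lower. With acetophenone the level was 63.8 ± 14.6 CPM in controls (n = 5), 56.2 ± 31.1 at 1% and 55.7 ± 29.2 at 100% (SD, n = 3 each), which overlapped.

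Aldh1a3 (chromosome 7, 66390890 to 66427517) was the weakest of the family, with 16 to 77 counts per library. The TMT controls lay between 4.97 and 9.88 CPM, 1% TMT between 6.25 and 10.7 and 100% TMT between 3.61 and 7.04. It was lower with 100% than with 1% TMT in 4 of 4 litters, at 0.577 to 0.756 times, although the groups overlapped. With acetophenone it averaged 9.86 ± 3.75 CPM in controls, 7.20 ± 1.97 at 1% and 7.99 ± 2.15 at 100% (SD, n = 5, 3 and 3). At 1% acetophenone the log2 fold change was -0.49 (edgeR, SE 0.49, adjusted p = 1).

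Crabp1 (chromosome 9, 54764748 to 54773110) encodes a protein that binds retinoic acid in the cytoplasm. In TMT controls it stood at 266.5, 245.6, 297.7 and 240.1 CPM, with 1% TMT at 186.7, 195.6, 256.5 and 224 CPM and with 100% TMT at 153.8, 115, 142.3 and 117.7 CPM. With TMM scaling the level went down in each litter from control to 1% and from 1% to 100%. Scaled to total counts without TMM, litter 4 was instead higher with 1% TMT than in its control (218.2 against 209.3 CPM). The 100% libraries lay below all controls and also below all 1% libraries. The means were 262.5 ± 26.1, 215.7 ± 31.5 and 132.2 ± 18.9 CPM (SD, n = 4 each), and the ratio of 100% TMT to control within litters was 0.468 to 0.577, the narrowest range of the 8 genes.

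The edgeR log2 fold change of Crabp1 was -0.96 at 100% TMT and -0.53 after the correction for GC content and length. Its transcript is short (802 bases) and rich in GC (57.4%). That correction also moved the median log2 fold change of all genes from 0.02 to 0.11. At 1% TMT the log2 fold change was -0.28 (edgeR, SE 0.17, adjusted p = 0.999), lower in 4 of 4 litters with TMM scaling. In the fit blocked by litter the SE was 0.14 (edgeR adjusted p = 0.747). In the same libraries the summed level of 6 marker genes of immature olfactory neurons was also lower with 100% TMT in 4 of 4 litters (0.614 to 0.767 times), and its part in the level of Crabp1 was not tested.

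Crabp2 (chromosome 3, 87948666 to 87953376), which hands retinoic acid to the nuclear receptors, was lower with 100% TMT in 4 of 4 litters, by a smaller factor. Controls stood at 164.3, 94, 188.4 and 104.7 CPM, 1% TMT at 123.3, 102.9, 117.8 and 149 and 100% TMT at 96.3, 80.8, 104.9 and 78.9. The 100% libraries of litters 1 and 3 lay above the lowest control, so the groups overlapped. The log2 fold change was -0.59, and at 1% TMT it was -0.16 (edgeR, SE 0.24, adjusted p = 0.999), with 2 litters higher and 2 lower.

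Of the receptor genes Rara was lower and, with TMM scaling, Rarb higher with 100% TMT in 4 of 4 litters. Rara (chromosome 11, 98927818 to 98974942), the RAR found in most tissues, stood at 50.6, 48.2, 52.3 and 40 CPM in controls, at 47.9, 29.5, 55.5 and 39.2 with 1% TMT and at 28.9, 32.2, 25.2 and 34.5 with 100% TMT. The 100% libraries all lay below the controls, at 0.482 to 0.862 times within litters. The log2 fold change was -0.63, and -0.13 after the correction for GC content and length, for a transcript of 59.2% GC. At 1% TMT it was -0.15 (edgeR, SE 0.24, adjusted p = 0.999).

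Rarb (chromosome 14, 16430839 to 16819156) is a textbook target of retinoic acid, through a response element in its own promoter. Its RefSeq promoter is shown, 250 bases before to 50 bases after the start, at chr14:16575427-16575726 on the - strand of GRCm38.p6. The element can be read in it, in capitals. The window lies inside the annotated gene, so it belongs to an internal start, while the CPM count reads of the whole gene.
Rarb promoter: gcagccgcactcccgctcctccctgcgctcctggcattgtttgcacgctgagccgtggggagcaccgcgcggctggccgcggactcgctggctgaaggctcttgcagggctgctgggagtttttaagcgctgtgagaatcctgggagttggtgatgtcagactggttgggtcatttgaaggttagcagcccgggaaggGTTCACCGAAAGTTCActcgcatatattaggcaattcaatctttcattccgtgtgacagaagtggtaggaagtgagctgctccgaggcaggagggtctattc
The search took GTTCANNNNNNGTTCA, GTTCANNNNNNGGTCA, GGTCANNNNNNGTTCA and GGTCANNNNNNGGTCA on both strands, which are direct repeats of a receptor site of 6 bases (of which the last 5 are spelled out) spaced by 5 bases. The match covers positions 199 to 214 of the window, counted from its 5′ end, and begins 52 bases before the start. A match stood in 81 of the 32851 promoters of the table (0.247%). It stood in 1 of the 11 promoters that the table holds for 7 of the 9 genes, that of Rarb. A match describes the letters of this window, and no binding was measured. Whether the element bears on the level of Rarb was not tested.

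The level of Rarb was 22.9, 5.95, 8.63 and 7.03 CPM in TMT controls, 25.5, 6.77, 21.2 and 24.7 with 1% TMT and 23.9, 11.2, 14.1 and 20.1 with 100% TMT. Litter 1 was high in all groups and barely moved (1.11 and 1.04 times its control), while litter 4 was 3.51 and 2.86 times its control. Scaled to total counts without TMM, litter 1 was instead lower with 100% TMT than in its control (23.2 against 23.8 CPM). The order of the doses differed between litters, with 100% above 1% in litter 2 alone. The log2 fold change at 1% TMT was 0.81 and did not pass (edgeR, SE 0.53, adjusted p = 0.999; in the fit blocked by litter 0.86, SE 0.39, adjusted p = 0.694). At 100% TMT it was 0.66, and 1.28 without the control of litter 1; at 1% TMT it was 1.43 without that library.

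With acetophenone Rarb was higher than the control in 3 of 3 litters at 100% (1.04, 1.24 and 1.16 times) and in 2 of 3 at 1%, and the groups overlapped. The log2 fold changes were 0.21 (SE 0.41) and 0.15 (SE 0.37), both with an edgeR adjusted p of 1. For Rara the log2 fold changes were 0.21 (SE 1.46) and 0.02 (edgeR, SE 1.59, adjusted p = 1 for both), and without litter 3, described below, the SE was 0.44 at 100% and 0.28 at 1%. The log2 fold changes at 100% and 1% were -0.05 (SE 0.96) and 0.02 (SE 0.84) for Crabp1, and -0.13 (SE 0.40) and -0.04 (SE 0.26) for Crabp2, each with an edgeR adjusted p of 1. These fits had no litter term. With litter as a block and litter 3 left out, Crabp1 was at -0.06 (SE 0.21) and -0.04 (SE 0.15).

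**Figure D3:**
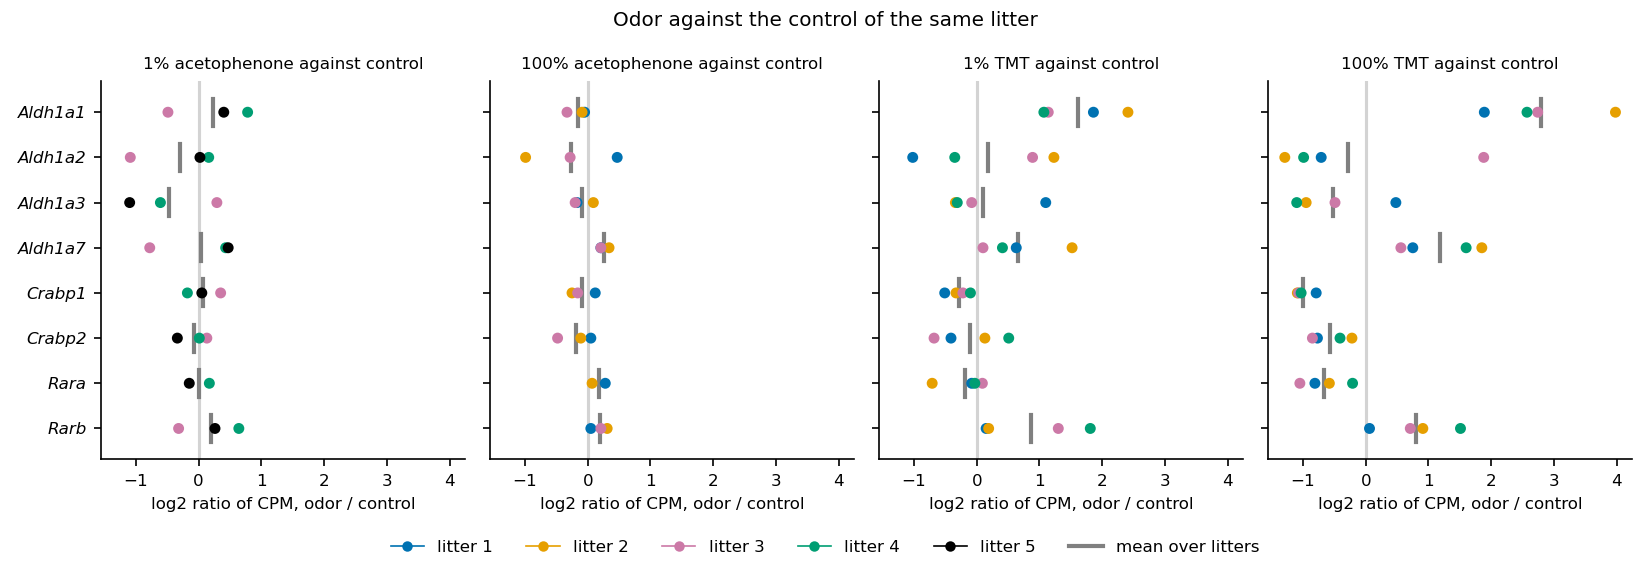
Log2 ratio of CPM between each odor library and the control of its litter (x axis) for 8 genes in the 4 comparisons with a control. Points are litters and grey bars are means over litters; Rara of acetophenone litter 3 is left out because its counts there are 0 or 1. At 100% TMT all points of Aldh1a1 and Aldh1a7 lie above 0 and all points of Crabp1, Crabp2 and Rara below 0.

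Cyp26b1 (chromosome 6, 84571414 to 84593908) was not detected in 20 of the 23 libraries. Its counts were 3 and 2 in the acetophenone controls of litters 4 and 5 and 4 with 1% acetophenone in litter 5. A count of 0 allows up to 3 counts, which is 0.323 to 1.22 CPM in these libraries and covers counting error only. It entered no test, and the other 8 genes passed the filter on low counts in all 6 comparisons.

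At 100% TMT 3 of the 8 genes had groups that did not overlap (Aldh1a1, Crabp1 and Rara), as had 9.13% of the 13233 genes tested. These genes were chosen with that comparison known, so nothing is read from the count. In that comparison edgeR called 0% of all genes without a block and 2.37% with litter as a block. At 1% TMT and at 1% acetophenone 0 of the 8 genes had groups that did not overlap, beside 2.25% and 3.98% of all genes. The tests at 1% TMT share their controls with 100% TMT and are not independent of the choice of genes. Of the 8 genes 0 passed at 1% TMT, where edgeR called 0% of all genes without and 0.00756% with the block. Of the 8 genes 0 passed at 1% acetophenone, where it called 0% and 0.00828%, and 0 passed at 100% acetophenone. Between the acetophenone doses it called 0% of 12873 genes, and between the TMT doses 0%. The groups of the TMT doses did not overlap for Crabp1, 1 of the 8 genes, nor for 3.40% of all genes. At an unadjusted p under 0.05 edgeR had 389 higher and 179 lower genes at 1% TMT, where DESeq2 called 4. These numbers were 50, 43 and 1 at 1% acetophenone, 48, 13 and 5 at 100% acetophenone, and 453, 354 and 4 between the acetophenone doses. At 100% TMT they were 1102, 842 and 483, and between the TMT doses 294, 403 and 22.

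Per kilobase of transcript, averaged over the 23 libraries, Crabp1 had the highest level (201.6 CPM per kb), followed by Crabp2 (108.3), Aldh1a1 (83.2), Aldh1a7 (33.2), Aldh1a2 (18.4), Rara (9.57), Rarb (8.91), Aldh1a3 (2.29) and Cyp26b1 (0.0236). These are levels from uniquely aligned reads, which leave out the reads that Aldh1a1 shares with Aldh1a7. With the estimated counts Aldh1a1 (73.7 CPM per kb) stood above Crabp2 (68.5), and the order was otherwise as given. The order also changed with the experiment. In TMT controls Crabp1 stood at 327.3 and Aldh1a1 at 14.6 CPM per kb, whereas in acetophenone controls they stood at 159 and 120.3. Rara was above Rarb in TMT controls (14.1 against 3.58 CPM per kb) and below it in acetophenone controls (7.42 against 11.6, or 9.24 against 10.2 without litter 3).

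The 3 acetophenone libraries of litter 3 stood apart in Rara and Crabp1. Rara had 1 count in the control, 1 at 100% and 0 at 1%, where 3 counts are 1.12 to 1.22 CPM, against 82 to 136 counts (28.4 to 43.1 CPM) in the 8 libraries of the other litters. Crabp1 had 56, 46 and 67 counts there, against 374 to 567 elsewhere, or 22.1 against 151.3 CPM on average. Aldh1a1 and Aldh1a7 were at 0.936 and 0.993 times the other litters, and Rarb stood at 53.3 against 35.6 CPM. The shortfall was shared by a set of genes: of 6652 genes above 10 CPM in every other acetophenone library, 262 (3.94%) were over 5-fold lower in each library of litter 3 than in the lowest of the other libraries. Rara was one of them and Crabp1 was not, and the 262 had a median GC content of 58.2%, against 51.0% for all. In each of the other litters of both experiments 0 genes met the same rule. All 3 libraries of the litter, the control included, shared the shortfall. Without litter 3 the SE of Rara at 1% acetophenone went from 1.59 to 0.28 with a log2 fold change of 0.03.

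**Figure D4:**
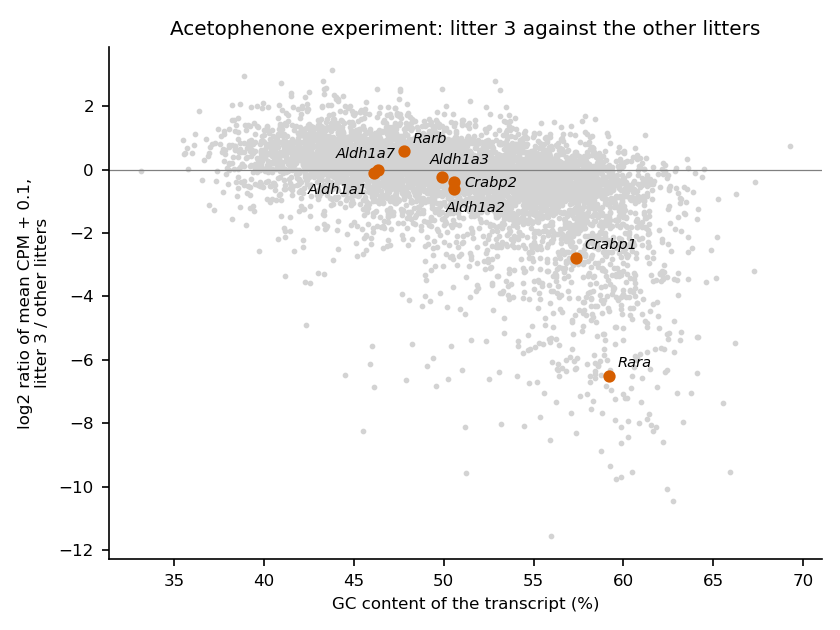
Log2 ratio of the mean level in acetophenone litter 3 to that in the other acetophenone litters (y axis, after adding 0.1 CPM) against the GC content of the transcript in percent (x axis). Grey points are 6603 genes and orange points are 8 of the retinoid genes; Crabp1 (57.4% GC) and Rara (59.2% GC) lie at -2.77 and -6.50, and the others between -0.60 and 0.58.

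The genes most like Aldh1a1 across the 23 libraries, by the correlation of log2(CPM + 1) after the mean of each experiment was subtracted, were Cab39l (r = 0.96), Snapc5 (0.94), Mocs2 (0.93), Vps54 (0.93) and Farsb (0.92), out of 10648 genes compared. Within the 12 TMT libraries these r were 0.95 to 0.99 and within the 11 acetophenone libraries 0.48 to 0.86. Aldh1a7 followed Aldh1a1 at 0.89 in TMT libraries and 0.32 in acetophenone libraries, and Rarb at 0.70 and 0.60. Crabp1 ran against it in TMT libraries (-0.75) with -0.03 in acetophenone libraries. The genes most like Crabp1 were Tubb2b, a neuronal tubulin, Lmo1, Nacad and Id3 (0.96 each) and Hist3h2a (0.95), with 0.79 to 0.85 within TMT libraries and 0.98 to 0.99 within acetophenone libraries, which include litter 3. Rara followed Crabp1 at 0.94, with 0.76 within TMT libraries and 0.97 within acetophenone libraries, where both genes were low in litter 3. For Cyp26b1 the list (Pth2 and Nupr1l at 0.79, Mgat4b at 0.75, Imp3 at 0.74, Ccdc85b at 0.73) rests on 3 libraries with at most 4 counts and has no reading. Points of these correlations share litters and preparation, and no test was made. The genes most like Aldh1a1 (46.1% GC) had transcripts of 40.2 to 46.3% GC. Those most like Crabp1 (57.4% GC) had 51.2 to 60.2% GC, except Hist3h2a at 45.9%. The part of GC content in these correlations was not tested.

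In the pathway lists around the 9 genes, the highest level per kilobase was that of Adh1. These lists were also chosen with earlier results of these data known. Their p-values and medians at 100% TMT, and in the TMT comparisons that share its libraries, are thus not independent of that choice. Adh1 (chromosome 3, 138260991 to 138290698), an alcohol dehydrogenase that also oxidises retinol, averaged 2454 CPM over the 23 libraries (1645 CPM per kb), followed in its list by Adh5 at 251 and Dhrs4 at 91.9 CPM per kb. Of 17 genes of retinol and retinal oxidation and reduction 10 were tested in TMT. At 100% TMT 0 of them passed edgeR without a block, and 1 passed with litter as a block and with DESeq2, which called 2.37% and 3.65% of all genes. This was Adh7 (chromosome 3, 138217760 to 138233382), an alcohol dehydrogenase of surface epithelia with high activity on retinol. It went from 98.6, 102.7, 128.7 and 93.7 CPM in controls to 149.9, 163, 228.6 and 184 CPM with 100% TMT, so that the groups did not overlap, as for 9.13% of all genes. Its log2 fold change was 0.79 with litter as a block (edgeR, SE 0.17, adjusted p = 0.0372), and 0.80 without it (SE 0.21, adjusted p = 0.159). DESeq2 gave an adjusted p of 0.0165. The 10 genes had a median log2 fold change of 0.21 without the block, beside 0.02 over all genes, and 8 of 10 were above 0. After the correction for GC content and length the median of the list and that of all genes were both 0.11.

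The call of Adh7 does not hold after the correction for GC content and length, where the log2 fold change was 0.09 (edgeR, SE 0.18, adjusted p = 0.851) for a transcript of 41.8% GC. With the block, 314 genes passed at 100% TMT with all 4 litters and 179, 1, 0 and 17 without litters 1, 2, 3 and 4, so that 0 genes passed edgeR without litter 3. With 1% TMT Adh7 stood at 100.6, 73.6, 112.6 and 123 CPM (log2 -0.04, SE 0.20, edgeR adjusted p = 0.999). Adh1 was at 2156, 2277, 2181 and 1383 CPM in TMT controls and at 2612, 3101, 4129 and 1787 CPM with 100% TMT, higher in each litter. It passed after the correction for GC content and length (log2 0.65, SE 0.14, edgeR adjusted p = 0.0496), where 1.57% of all genes did, and not with the block alone (log2 0.54, SE 0.14, adjusted p = 0.0612).

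Of 16 other aldehyde dehydrogenases 14 were tested in TMT and 0 passed at 100% TMT, with 11 of 14 fold changes above 0 and a median log2 fold change of 0.45, beside 0.02 over all genes. The highest of them per kilobase were Aldh3a1 (150.6 CPM per kb), Aldh2 (149.2) and Aldh7a1 (44). With litter as a block Aldh3a1 had a log2 fold change of 0.50 (edgeR, SE 0.22, adjusted p = 0.231), Aldh7a1 0.51 (SE 0.15, adjusted p = 0.0845) and Aldh2 -0.13 (SE 0.15, adjusted p = 0.702). At 100% acetophenone 2 of 14 were above 0, with a median of -0.26 beside -0.01 over all genes, and 0 passed.

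Of 10 genes of retinol binding, uptake and storage 9 were tested in TMT and 0 passed at 100% TMT, with a median log2 fold change of -0.14 (-0.37 with litter as a block). Of its members, Dgat1 stood at 14.8 CPM per kb and Rbp2 at 8.49 CPM per kb. Of 5 further nuclear receptor genes 4 were tested and 0 passed (median -0.48, and 0.10 after the correction for GC content and length, beside 0.11 over all genes), led by Rxrb (18.4 CPM per kb), Rarg (13.8) and Rxrg (2.53). Of 3 genes of breakdown and other binding 1 was tested, Fabp5 (3.31 CPM per kb, log2 -0.74), and it did not pass; Cyp26a1 (0.597) and Cyp26c1 (0.0401), with at most 65 and 2 counts in any library, did not pass the filter on low counts.

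Of 9 known retinoic acid response genes 5 were tested and 0 passed with edgeR in any comparison, with a median log2 fold change of -0.04 at 100% TMT. Rarres2 had the highest level (58.5 CPM per kb), followed by Meis2 (11.6) and Meis1 (3.69). Meis2, a homeobox gene, passed with DESeq2 alone between the TMT doses (log2 1.30, SE 0.31, adjusted p = 0.0175), where it called 0.166% of all genes. Its levels were 46.4, 36.2, 28 and 55.7 CPM in controls, 24.5, 35.6, 16.2 and 24.6 with 1% TMT and 59.4, 70, 54.5 and 61.3 with 100% TMT. The 100% libraries lay above all 1% libraries, and the 1% library was the lowest of its litter in 4 of 4. For Meis2 edgeR gave an adjusted p of 0.625, or 0.308 with litter as a block. In the acetophenone comparisons 0 genes of these lists passed with any of the tools.

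Markers of the cell types that the tissue could hold were summed in each library. Summed over 9 markers, mature olfactory neurons were at 1653 to 3145 CPM in TMT controls and 2875 to 3980 CPM with 100% TMT, higher in 4 of 4 litters (1.09 to 1.95 times), with a median log2 fold change of 0.38 in the fit blocked by litter. They were also higher in 4 of 4 litters at 1% TMT (1.03 to 1.71 times, median 0.26). At 100% acetophenone they were higher in 3 of 3 litters (1.125 to 1.57 times, median 0.38). At 1% acetophenone they were higher in 2 of 3 litters (0.870 to 1.02 times, median -0.09). The 6 markers of immature neurons stood at 1982 to 2982 CPM in TMT controls and at 1444 to 2287 CPM with 100% TMT. With litter as a block edgeR called 1 of them, Tubb3, and 2.37% of all genes, and it called 0 genes without the block or, within it, without litter 3. The 6 markers of sustentacular cells, the supporting cells of the epithelium, were at 7322 to 8302 CPM in controls and 6235 to 8625 CPM with 100% TMT (0.838 to 1.04 times, higher in 2 of 4 litters), while the median log2 fold change of these markers was 0.35. The summed markers of respiratory ciliated cells were higher in 0 of 4 litters (0.795 to 0.9998 times), with a median log2 fold change of 0.41. Markers of endothelium, with Kdr at 3 counts or fewer in TMT controls, were higher in 4 of 4 litters (1.25 to 3.63 times) at a summed level of at most 24.5 CPM, and the summed markers of globose basal cells in 4 of 4 (1.09 to 2.47 times), although the median log2 fold change of these was -0.13. Bowman gland and secretory markers were higher in 3 of 4 (0.701 to 2.83 times), at 14236 to 82722 CPM in controls. Immune markers (0.389 to 1.15 times) and horizontal basal cell markers (0.332 to 1.02 times) were higher in 1 of 4. So were markers of mesenchyme (0.737 to 1.12 times), red cells (0.4245 to 1.25 times) and skeletal muscle (0.183 to 1.06 times). Of the muscle markers, Myh4 and Tnnt3 were at 3 counts or fewer with 100% TMT. Ensheathing glia markers were higher in 2 of 4 (0.425 to 2.66 times). The part of these cell types in the levels of Aldh1a1 and the other genes was not tested. In bulk RNA from a pull-down, more cells of a type, more RNA per cell and more of that RNA on phosphorylated ribosomes cannot be told apart.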

How the data were processed

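RNA-seq of pS6 pull-downs from olfactory epithelium was used in 23 libraries. Reads were processed with Bowtie, bedtools and the mm10 build, per the submitters' processing notes. What each tool did, its version and the gene annotation used were not given in the sources used here. The deposited files each list 23481 genes with 20 value columns. The columns were read from their values, since no header names them: the first holds deposited counts of uniquely aligned reads, and later columns hold the authors' estimated counts with reads of up to 20 alignments added. The estimated counts were rounded and served as an alternative, and 17 columns were not used.

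Groups and litters came from the labels. Total counts were 2118099 to 9526932 per library. Counts were tested with edgeR 4.0.16 in R 4.3.3 (TMM, filterByExpr with a minimum count of 10, quasi-likelihood test, 2-sided, Benjamini-Hochberg over all genes tested, threshold 0.05). The 3 libraries of an acetophenone dose were set against the controls of the same litters, and the 12 TMT libraries shared a fit. The main fits had no litter term, except between the acetophenone doses. Litter as a block was an alternative, as were DESeq2 1.42.0, other size factors, no filter, estimated counts, fits of the 8 libraries compared, a GC and length correction (splines with 5 and 3 degrees of freedom) with the block, and leaving out libraries. Leaving out litter 3 without a block was added after seeing the data. The labels give the litters, so the numbers pair the libraries: deviations from the group means correlated at 0.63 to 0.91 within litters for acetophenone and at -0.07 to 0.50 for TMT. The scripts were tested on simulated data.

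CPM used TMM library sizes of the 23 libraries. Lengths, GC content, coordinates and coding sequences came from GENCODE M21 (mm10), and promoters from RefSeq (GRCm38.p6), which matched 7 of the 9 genes. Tables and figures were made with Python 3.11.15, pandas 2.3.3, numpy 2.4.6 and matplotlib 3.10.9. The 9 genes and all lists were chosen with earlier results of these data known. Named beside the 9 genes were those of the pathway lists that passed in any fit, the 3 of each list with the highest level per kilobase, and the 5 most correlated with Aldh1a1, Crabp1 and Cyp26b1. Tubb3 was named after its value was seen. The values of 1 gene of the pathway lists are not reported here.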

Additional observations from a re-analysis of the deposited data

Results flagged for a closer look

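In 3 of the 32 groups of 4 or 5 libraries examined (8 genes in 4 groups) 1 library lay far from the others by Dixon's test at the 95% level, which chance gives in about 1 of 20 groups. Crabp2 was at 130 CPM in the acetophenone control of litter 2, above 70.7 to 86.7 CPM in the other controls. Rara was at 0.373 CPM in the acetophenone control of litter 3, below 28.4 to 35.4 CPM in the others. Rarb was at 22.9 CPM in the TMT control of litter 1, above 5.95 to 8.63 CPM in the others.

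At 100% the log2 ratios of Aldh1a1 to its control lay below 0 with acetophenone and above 0 with TMT. The lower level with acetophenone did not pass the test, and in litter 1 it turned higher with scaling to total counts. Aldh1a1 was chosen because its higher level with 100% TMT was known, so that side of the difference restates the choice. Its mean log2 ratio to the control of the same litter was -0.16 with acetophenone, below 0 in 3 of 3 litters, and 2.80 with TMT, above 0 in 4 of 4. The difference was not tested.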

How the results depend on the processing

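The count of genes called by edgeR was 0 in each of the 6 comparisons as tested. At 100% acetophenone it was 11 with litter as replicate block, 5 with DESeq2 and 8 with the GC and length correction, and in the block 28, 7 and 3 without litters 1, 2 and 3. At 1% acetophenone it was 1 with each of these settings, and in the block 0, 1 and 19 without litters 3, 4 and 5. At 1% TMT it was 1 with the block, 4 with DESeq2, 1 with the correction and 0 to 1 with single libraries left out. At 100% TMT it was 314, 483, 208 and 0 to 1, and in the block 179, 1, 0 and 17 without litters 1 to 4. Between the TMT doses it was 22 with DESeq2 and 4 with the correction. Between the acetophenone doses it was 4 with DESeq2, 3 without the filter, 0 to 5 with single libraries left out, and 1 and 5 without litters 1 and 5. In the 4 comparisons in which the 8 genes were tested, fits with and without the replicate block differed in the call of 0 of them; at 100% TMT and between the TMT doses they were not tested.

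Of 624 alternative fold changes of the 8 genes in tested comparisons 546 kept their direction and 78 reversed, with 0 calls gained. Of these comparisons, the one at 1% TMT shares its controls with 100% TMT, the comparison behind the choice of genes. At 100% acetophenone Crabp1 was 0.05 with the GC and length correction. At 1% acetophenone Rara was -0.01 with the block, Aldh1a7 -0.01 with the correction, and Crabp1 -0.01 and Aldh1a2 0.10 without litter 3. Between the acetophenone doses without the block Aldh1a1 was 0.14, Aldh1a2 -0.01, Crabp1 0.34 and Crabp2 0.30, and without litter 3 as well 0.15, -0.22, 0.43 and 0.67. At 1% TMT Aldh1a2 was 0.17 with the block and 0.24 with the correction, and Rara 0.10 with the correction. The cause was not tested.

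Of 368 alternative fold changes of the 8 genes at 100% TMT and between the TMT doses 13 moved by at least the SE of the main fit. Among them was Aldh1a2 (-0.91 at 100% TMT and -0.99 between the doses without litter 3 in the block). Of 100 alternative mean levels 24 moved, 23 of them with the estimated counts. With these, group means of the 7 genes other than Aldh1a1 and Aldh1a7 were 0.622 to 0.648 times those printed (Crabp1 in TMT controls 169.7 CPM, Crabp2 88.98, Rara 30.9), since their counts gained 0 while library sizes grew 1.53 to 1.65 times.

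With whole litters left out of the block, reversed values at 100% acetophenone were 0.11 for Aldh1a2 and 0.01 for Crabp1 (no litter 2). At 1% acetophenone they were 0.11 for Aldh1a2 and -0.04 for Crabp1 (no litter 3), -0.01 for Aldh1a1, -0.10 for Aldh1a7 and -0.19 for Rara (no litter 4), and -0.19 for Aldh1a7 and 0.04 for Crabp2 (no litter 5). Between the acetophenone doses they were -0.07 for Aldh1a2 (no litter 1), -0.32 for Aldh1a2, -0.18 for Aldh1a7, 0.13 for Crabp2 and -0.27 for Rarb (no litter 3), and -0.06 for Aldh1a3 (no litter 5). At 1% TMT they were 0.55 for Aldh1a2 and -0.27 for Aldh1a3 (no litter 1), 0.08 for Aldh1a2 and 0.09 for Crabp2 (no litter 3), and 0.39 for Aldh1a2 (no litter 4).

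With single libraries left out, log2 fold changes at 100% acetophenone ran from -0.64 to 0.24 for Aldh1a1, -0.65 to 0.15 for Aldh1a2, -0.37 to 0.18 for Aldh1a3, -0.55 to 0.44 for Crabp1, -0.42 to 0.12 for Crabp2, -0.53 to 0.80 for Rara and -0.08 to 0.50 for Rarb. At 1% acetophenone they ran from -0.68 to 0.17 for Aldh1a2, -0.26 to 0.31 for Aldh1a7, -0.63 to 0.55 for Crabp1, -0.14 to 0.02 for Crabp2, -0.54 to 0.59 for Rara and -0.07 to 0.53 for Rarb. Between the acetophenone doses they ran from -0.34 to 0.49 for Aldh1a2, -0.08 to 0.76 for Aldh1a3, -0.20 to 0.55 for Aldh1a7, -0.34 to 0.03 for Crabp2 and -0.26 to 0.28 for Rarb. At 1% TMT they ran from -0.32 to 0.28 for Aldh1a2, -0.10 to 0.19 for Aldh1a3, -0.31 to 0.02 for Crabp2 and -0.29 to 0.00 for Rara.

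Depth was lowest for Cyp26b1, which no comparison could test, and Aldh1a3 rested on 16 to 77 counts per library.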
